A study of Mus musculus with 2 samples.

Results

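The Hox and TALE homeobox genes described here are 9 members out of 43346 annotated genes in the deposited gene tables: Hoxa5, Hoxa7, Hoxa9, Hoxa10 and Hoxb4 of the Hox family, and Meis1, Pbx2, Pbx3 and Pknox1 of the TALE family. They were chosen by gene symbol, through their Ensembl identifiers, and all 9 were found in both libraries. The study measured total RNA, depleted of ribosomal RNA, in granulocyte-monocyte progenitors (GMP), precursors of neutrophils and monocytes in the bone marrow. They were taken as primary cells from adult male C57BL/6J mice aged 5 to 6 weeks, with no transgene, allele or treatment named in the labels. The only group has 2 biological replicates, with 100 ng of RNA in each library, so every result is a level in each library and no test between conditions exists. Both libraries are tied to 1 donor record, so each SD may describe technical spread in part.

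Hox proteins bind DNA through a homeodomain and set cell identity along the body axis, and in blood the Hoxa genes are known for keeping stem and progenitor cells from differentiating. Proteins of the TALE class, whose homeodomain carries an extra loop, bind DNA together with Hox proteins: Pbx proteins form the heterodimers, and Meis and Pknox (Prep) proteins bind Pbx and bring it into the nucleus. Hoxa9 with Meis1 is a well known pair in mouse models of acute myeloid leukaemia.

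The part of each protein that reads DNA is the last helix of the homeodomain, and its codons are shown for members of both families because they separate the families and were used further on to find which transcripts could encode a DNA-binding protein. Each line gives 39 coding bases, 5′ to 3′, of the GENCODE M21 transcript named. Capitals mark the codons that run from the invariant tryptophan and phenylalanine, over the variable residue and the invariant asparagine, to the invariant arginine.
Hoxa5-201: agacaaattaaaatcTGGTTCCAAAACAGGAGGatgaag
Hoxa10-202: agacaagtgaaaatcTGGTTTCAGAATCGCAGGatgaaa
Meis1-201: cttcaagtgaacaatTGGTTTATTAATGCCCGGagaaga
Pknox1-201: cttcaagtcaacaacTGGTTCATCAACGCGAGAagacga
Pbx2-201: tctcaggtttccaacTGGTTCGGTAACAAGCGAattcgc
Pbx3-201: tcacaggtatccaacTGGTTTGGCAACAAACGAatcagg

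The codon after TGGTTC or TGGTTT encodes glutamine in Hoxa5 and Hoxa10, isoleucine in Meis1 and Pknox1, and glycine in Pbx2 and Pbx3. Expected counts of 7 members were whole numbers with a deposited posterior SD of 0, so no reads of those genes were split with other genes. The exceptions were Meis1 and Pbx2, with posterior SDs of 1.80 and 4.84 counts in replicate 1 and 5.27 and 3.55 in replicate 2.

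Replicate 1 held 49473848 and replicate 2 held 44260902 expected counts, that is, reads assigned to features by an estimator. Levels between genes are compared as TPM, an abundance per transcript, which divides counts by transcript length and by the sum over all transcripts. Nuclear protein-coding genes had 19.07% and 22.84% of the TPM in replicates 1 and 2, so levels were also rescaled to the sum of those genes alone. The limit set by a count of 0, taken as 3 counts, was 0.0606 and 0.0678 CPM (counts scaled to the size of the library) in replicates 1 and 2, by counting error only. All 10 GMP markers fixed for this check were at or above 1 TPM in both libraries, among them Mpo and Elane. Of the stem and multipotent progenitor markers, 1 of 9 (Mllt3) reached 1 TPM in both libraries. On rescaled TPM Hlf and Procr passed as well, which made 3 of 9. In bulk RNA, fewer expressing cells and less RNA per cell cannot be told apart.

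The Hox genes in these cells were in the main Hoxa9 and Hoxa7. Hoxa9, on chromosome 6 at 52223100 to 52231089 of mm10, reached 3.32 and 5.74 TPM in replicates 1 and 2, a mean of 4.53 ± 1.71 (SD, n = 2). Hoxa7, its neighbour in the cluster at 52214491 to 52221854, was at 2.16 and 1.62 TPM, a mean of 1.89 ± 0.382. Every library value of Hoxa9 lay above every value of Hoxa7. The fold between them was 1.54 in replicate 1 and 3.54 in replicate 2, since Hoxa9 was higher and Hoxa7 lower in replicate 2. Their order in replicate 1 depended on the length used. Over the longest protein-coding transcript, a choice made after seeing the data, Hoxa9 was at 1.84 and 3.14 TPM in replicates 1 and 2. Hoxa7 was then at 2.23 and 1.68 TPM.

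Hoxb4, a gene known for expanding blood stem cells when overexpressed, was at 0.46 and 0.45 TPM in replicates 1 and 2, from 157 and 119 counts. Its library values did not overlap those of Hoxa7 above it or of Hoxa5 below it. Hoxa5, a member of the middle of the cluster, was at 0.07 and 0.10 TPM, from 17 and 18 counts. Hoxa10, a paralogue of Hoxa9 of the posterior group, was at 0.11 TPM from 25 counts in replicate 1 and at 0.01 TPM from 2 counts in replicate 2. Scaled to the library total, the count of Hoxa10 in replicate 2 was 0.0894 times that in replicate 1, with an exact 95% interval of 0.0103 to 0.359 for counting error alone. Hoxa5 and Hoxa10 overlapped in their library values.

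On a log scale, the 4 TALE members lay closer together in level than the Hox members did. Pbx2, the member with the highest level, was at 6.76 and 5.93 TPM in replicates 1 and 2, a mean of 6.345 ± 0.587 (SD, n = 2). It lies on chromosome 17 at 34591266 to 34597400. Pknox1, which encodes Prep1, was at 3.62 and 4.56 TPM, a mean of 4.09 ± 0.665, and Meis1, the partner of Hoxa9, at 3.02 and 4.13 TPM, a mean of 3.575 ± 0.785. Meis1 lies on chromosome 11 at 18879817 to 19018985. The fold of Hoxa9 over Meis1 was 1.10 in replicate 1 and 1.39 in replicate 2, and their library values overlapped.

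Pbx3, a Pbx gene also tied to Hoxa9 in leukaemia models, reached 3.60 and 1.81 TPM in replicates 1 and 2, a mean of 2.705 ± 1.27 (SD, n = 2). By counts it stood lower than the other TALE members, with 340 and 239 against 1334 to 2458 for the others in replicate 1. Its effective length, an average over its transcripts weighted by their TPM, came to 654 and 1179 nt in replicates 1 and 2. Taken over the longest protein-coding transcript instead, a choice made after seeing the data, Pbx3 was at 0.921 and 0.846 TPM. The value of Pbx3 therefore depended on the length used more than on the counts. Other members moved under this choice as well. The mean TPM fell from 4.53 to 2.49 for Hoxa9 and from 3.575 to 1.49 for Meis1. Pknox1 fell from 4.09 to 3.16, and Hoxa7 rose from 1.89 to 1.96. For Meis1 the longest coding transcript is Meis1-206, of 7553 nt, with only 1.89% and 3.84% of the gene's TPM in replicates 1 and 2. The effective length of Meis1 differed little between the libraries, at 3060 and 3084 nt, unlike that of Pbx3.

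**Figure D1:**
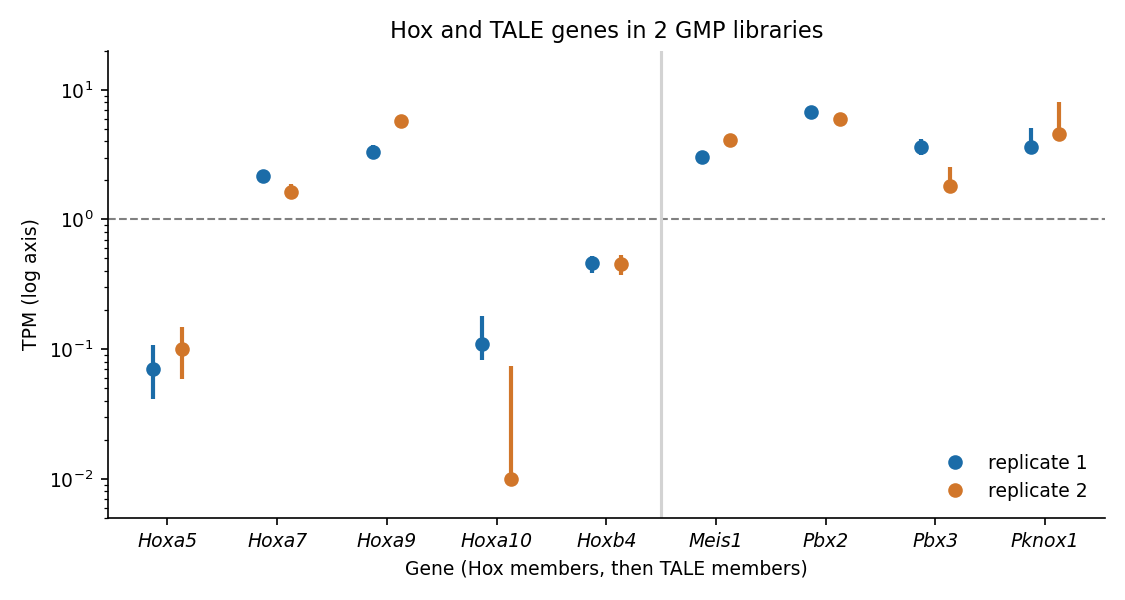
TPM on a log axis of the 5 Hox members (left) and 4 TALE members (right) in replicate 1 and replicate 2; points are deposited values, vertical lines are deposited credibility intervals and the dashed line is 1 TPM. The TALE genes sit between 1.81 and 6.76 TPM, while the Hox genes run from 0.01 TPM for Hoxa10 to 5.74 TPM for Hoxa9.

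In order of mean TPM the members ran Pbx2, Hoxa9, Pknox1, Meis1, Pbx3, Hoxa7, Hoxb4, Hoxa5 and Hoxa10. Only the steps from Pbx2 to Hoxa9, from Hoxa7 to Hoxb4 and from Hoxb4 to Hoxa5 separated every library value. The middle of the order is thus not resolved. Pbx2 and Hoxa9 were close in replicate 2, at 5.93 and 5.74 TPM, and their deposited credibility intervals overlapped there. At or above 1 TPM in both libraries were 6 of the 9 members, 2 of 5 Hox and 4 of 4 TALE genes. Over all nuclear protein-coding genes the share was 40.8%, or 8764 of 21461. On rescaled TPM Hoxb4 also passed, at 2.41 and 1.97, which made 7 of 9 against 47.8% of genes. The median log2(TPM + 1) of the TALE members exceeded that of the Hox members by 1.66 in replicate 1 and 1.88 in replicate 2, a mean of 1.77 ± 0.16 (SD, n = 2). The median TPM of the 9 members was 3.02 and 1.81, against 0.17 and 0.20 over all nuclear protein-coding genes and 6.465 and 7.74 over those at or above 1 TPM in both libraries.

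Across the family, most Hox RNA came from Hoxa7 and Hoxa9. Of 39 Hox genes, 2 reached 1 TPM in both libraries, and no count was assigned to 26. All 9 Hoxc and all 9 Hoxd genes had 0 counts, which by counting error allows at most 0.0339 TPM for a Hoxc gene and 0.0187 TPM for a Hoxd gene. Their deposited credibility intervals reached higher, up to 0.107 and 0.168 TPM. Of the Hox TPM, the Hoxa cluster made up 92.5% and 92.2% in replicates 1 and 2. Hoxa7 and Hoxa9 summed to 85.8% and 89.3% of it, with Hoxa9 at 52.0% and 69.7% and Hoxa7 at 33.8% and 19.7%. Hoxb4 held 7.20% and 5.46%.

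The remaining Hox genes had few counts. Of the 34 Hox genes that are not members, 8 had any count and 2 had counts in both libraries, Hoxa4 with 17 and 7 and Hoxb3 with 3 and 44. Hoxb3 had the highest mean of the 34, at 0.07 TPM. Counts of Hoxa3 were 0 and 21 in replicates 1 and 2, so it was seen in 1 library only.

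**Figure D2:**
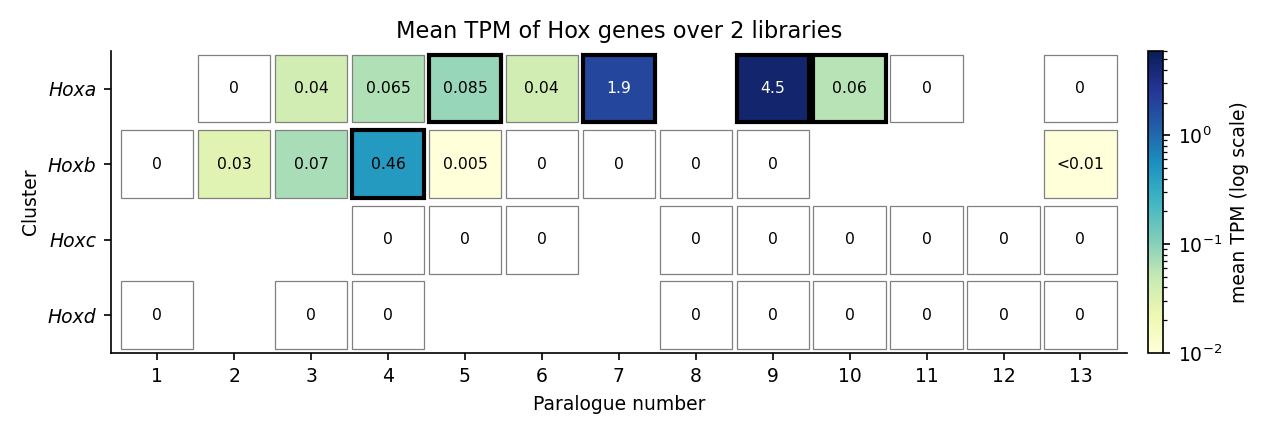
Mean TPM over 2 libraries of Hox genes, by cluster (rows) and paralogue number (columns), coloured on a log scale; thick frames mark members and white cells had 0 counts in both libraries. Hoxa9 and Hoxa7 are the 2 cells above 1 TPM, and the Hoxc and Hoxd rows are at 0 throughout.

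The other genes annotated in the Hoxa cluster had few counts as well. Within the cluster, on chromosome 6, the tables list 31 genes, of which 20 are not Hox genes, and 18 of those were without a count. Of the 20, 4 had an effective length of 0 and could not be measured, and several others are short, so their zeros do not show absence of RNA. Among the 4 is the microRNA gene Mir196b, which lies within the annotated span of Hoxa9. Hoxaas3, an antisense gene that overlaps the 3′ end of Hoxa7 and spans Hoxa5, had 59 and 21 counts, at 1.03 and 0.52 TPM. Hotairm1, a noncoding gene known from myeloid differentiation, had 14 and 0 counts. No source used here says whether the deposited counts used strand. Counts of Hoxaas3, Hoxa5 and Hoxa7 were whole numbers in both libraries, so no read was divided between them. Whether each read was given to the right strand was not tested. Beyond the cluster, the adaptor gene Skap2 was at 33.7 and 35.8 TPM and the homeobox gene Evx1 had 0 counts.

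Transcripts that encode the homeobox codons described above held a smaller share of the TPM in Hoxa7, Hoxa9, Hoxa10 and Pbx3 than in Meis1, Pbx2 and Pknox1. Of the 9 members, 2 have a single transcript (Hoxa5 and Hoxb4). In 3 of the other 7 (Hoxa7, Hoxa9 and Hoxa10) the transcript with the highest mean share of the gene's TPM is not annotated as protein-coding. The same was so in 12% of 8470 nuclear protein-coding genes with several transcripts. These shares are estimates, since transcripts of a gene have bases in common. The size range of the libraries also differed, 200 to 712 in replicate 1 and 200 to 1000 in replicate 2, and its part in the shares was not tested.

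Hoxa7 was the clearest case. Its transcript Hoxa7-205, annotated as a target of nonsense-mediated decay, made up 95.49% and 86.68% of the gene's TPM in replicates 1 and 2, with 550.92 and 285.09 counts. The protein-coding Hoxa7-201 held 3.15% and 13.32%, with 17.41 and 41.91 counts. The transcripts differ upstream of position 52217297, where Hoxa7-201 runs on through its own first exon and Hoxa7-205 is spliced from exons further upstream. The bases below show that site; capitals mark the shared bases.
Hoxa7-201: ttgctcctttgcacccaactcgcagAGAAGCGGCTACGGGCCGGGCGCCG
Hoxa7-205: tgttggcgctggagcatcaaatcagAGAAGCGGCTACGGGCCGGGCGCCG

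Hoxa9 was split between Hoxa9-201, the transcript that encodes the homeodomain protein, and Hoxa9-203, a processed transcript without a coding sequence. Hoxa9-203 held 53.40% and 41.65% of the gene's TPM in replicates 1 and 2, and Hoxa9-201 held 46.60% and 45.66%. By counts the order was different: Hoxa9-201 had 679.16 and 882.03, and Hoxa9-203 had 127.84 and 124.09. The TPM shares come closer because Hoxa9-203 is 678 nt long and Hoxa9-201 is 3226 nt. Hoxa9-202, annotated as protein-coding but without the homeobox codons described above, held 0% and 12.69%.

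The 3 transcripts enter the same bases at position 52225617 of chromosome 6. In Hoxa9-201 the site lies inside the first exon, in Hoxa9-202 an intron of 173 nt is removed from that exon, and in Hoxa9-203 it is joined over an intron of 5404 nt to an exon of 68 nt at 52231022 to 52231089. They are printed because the 3 transcripts differ just before this site; capitals mark the shared bases.
Hoxa9-201: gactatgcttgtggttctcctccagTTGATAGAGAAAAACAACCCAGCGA
Hoxa9-202: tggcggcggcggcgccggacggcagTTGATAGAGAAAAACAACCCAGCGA
Hoxa9-203: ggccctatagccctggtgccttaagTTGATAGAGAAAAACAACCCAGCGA

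For Hoxa10, all 25 counts of replicate 1 and both of replicate 2 were assigned to Hoxa10-203, a processed transcript. The deposited posterior mean TPM gave Hoxa10-203 a share of 78.6% in replicate 1. In replicate 2 it gave every transcript of the gene 25%, so those 2 counts do not tell them apart. Hoxa10-202, the long protein-coding transcript, had 0 counts in both libraries, which at this depth does not show absence of its RNA. The 2 share the last exon from position 52232780 and differ before it; capitals mark the shared bases.
Hoxa10-202: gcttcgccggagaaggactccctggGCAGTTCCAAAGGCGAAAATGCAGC
Hoxa10-203: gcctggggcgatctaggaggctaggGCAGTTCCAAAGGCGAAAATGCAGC

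The TALE members had coding transcripts in front, with Pbx3 apart. Pbx2-201 held 71.89% and 94.60% of the TPM of Pbx2, and Pbx2-203, also coding, 23.23% and 3.20%. Pknox1-201 held 61.99% and 57.12% of Pknox1. The shares of 2 further coding transcripts differed between the libraries: Pknox1-202 was at 15.15% and 1.41% and Pknox1-205 at 0% and 17.58%. The deposited Pknox1-205 is 4232 nt long and that of GENCODE M21 1778 nt, and its coding sequence was read from the later release. The retained intron transcripts Pknox1-203 and Pknox1-206 were steady, at 15.56% and 15.67%, and at 7.29% and 8.22%.

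The transcripts of Meis1 differed between the libraries more than its total did. Meis1-201 made up 87.62% and 44.99% of the TPM in replicates 1 and 2, and Meis1-209, also coding, 0.37% and 27.02%. Meis1-209 lacks exon 12 of Meis1-201, of 95 nt, and has another 3′ end. The counts of Meis1-209 were 5.15 and 391.01, and its deposited credibility intervals, up to 0.165 TPM in replicate 1 and from 0.687 TPM in replicate 2, did not overlap. Meis1-204, with a retained intron, was at 10.12% and 19.54%.

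In Pbx3 the transcript with the largest share was Pbx3-203, a coding fragment of 440 nt, at 50.50% and 52.07% of the TPM but with 69 and 24 counts. Pbx3-209, a nonsense-mediated decay transcript, was at 28.58% and 0%. By counts Pbx3-208, with a retained intron, led in both libraries, with 112 and 95. The other transcripts at 5% or more in either library were Pbx3-202 at 6.10% and 9.45%, Pbx3-201 at 0% and 11.88%, Pbx3-210 at 0% and 8.18%, and Pbx3-205 at 6.78% and 0%.

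Counting only transcripts whose annotated coding sequence holds the homeobox codons described above gave another order of the members. Pbx2 kept 6.43 and 5.80 TPM in replicates 1 and 2, Pknox1 2.79 and 3.46, Meis1 2.72 and 3.14, and Hoxa9 1.55 and 2.62. Hoxa7 was left with 0.07 and 0.22 TPM, below Hoxb4 at 0.46 and 0.45, and Pbx3 with 0.22 and 0.39. Hoxa10 was left with none, but it had only 25 and 2 counts in all. As a share of counts, such transcripts made up 84.2% and 83.4% of Hoxa9, 3.05% and 12.8% of Hoxa7, 91.4% and 80.1% of Meis1, 93.3% and 93.5% of Pknox1, and 23.9% and 44.1% of Pbx3.

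**Figure D3:**
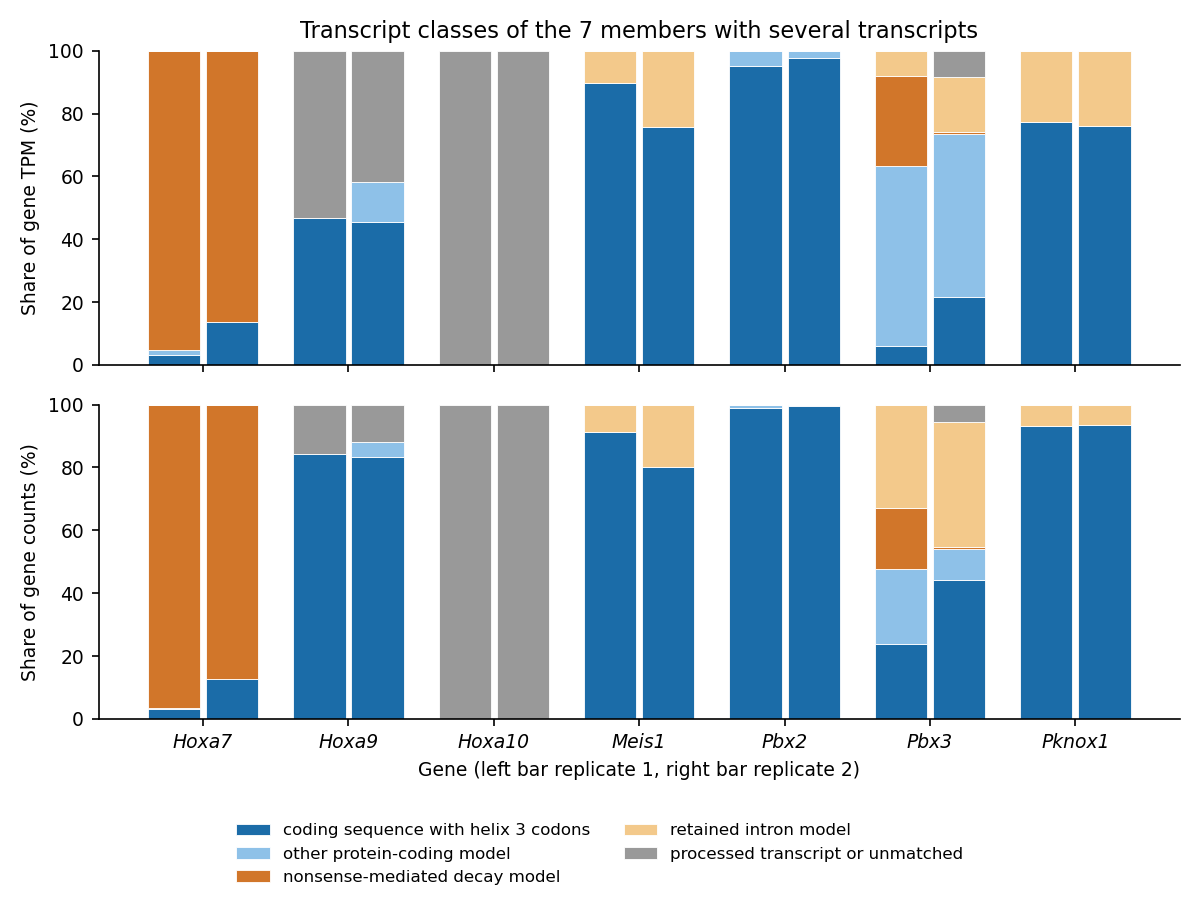
Share in percent of the gene's TPM (top) and of its counts (bottom) held by 5 classes of transcript, for the 7 members with several transcripts, with replicate 1 on the left and replicate 2 on the right of each pair. Hoxa7 is almost wholly of the nonsense-mediated decay class on both scales, and Hoxa9 turns from 46.7% to 84.2% full coding in replicate 1 when counts replace TPM. Hoxa10, on only 25 and 2 counts, has no coding share.

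The spread between the libraries was read from intervals and from ratios. The deposited credibility intervals of TPM, whose level is not given, did not overlap between the libraries for 5 of 9 members (Hoxa7, Hoxa9, Hoxa10, Meis1 and Pbx3), against 37.4% of all nuclear protein-coding genes and 70.5% of those at or above 1 TPM in both. Among the 6 members at that level it was 4, a share near that of other genes, so the count is no result about the members. TPM intervals also carry the difference in the share of nuclear protein-coding genes: Meis1 was at 3.02 and 4.13 TPM as deposited and at 15.8 and 18.1 on rescaled TPM. As a ratio, rescaling brought the libraries closer for Meis1 and Hoxa9. It set them further apart for Hoxa7, at 11.3 and 7.09, for Pbx3, at 18.9 and 7.92, and for Hoxa10. On log2 CPM scaled with edgeR's TMM, replicate 2 minus replicate 1 was 0.51 for Hoxa9, -0.68 for Hoxa7 and -0.39 for Pbx3. It was 0.21 for Meis1, 0.18 for Pknox1 and for Hoxa5, -0.31 for Pbx2 and -0.28 for Hoxb4. A difference above 1 in size was seen for 1 member, Hoxa10 at -2.67, which rests on 25 and 2 counts. Over all nuclear protein-coding genes 9.8% passed that size, and 6.78% of the 11143 that edgeR's filterByExpr keeps. On rescaled TPM with a pseudocount of 1 the member past 1 was Pbx3 in place of Hoxa10, at -1.16, against 3.71% of genes.

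Hoxa9 and Hoxa7, neighbours in the cluster, thus differed in opposite directions between replicates of the same cell type. In the band of genes with a mean of 300 to 1000 counts, where both lie, the middle 90% of 2450 genes ran from -0.79 to 0.73. Both members were inside that range, and 3.55% of those genes differed by more than 1.

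**Figure D4:**
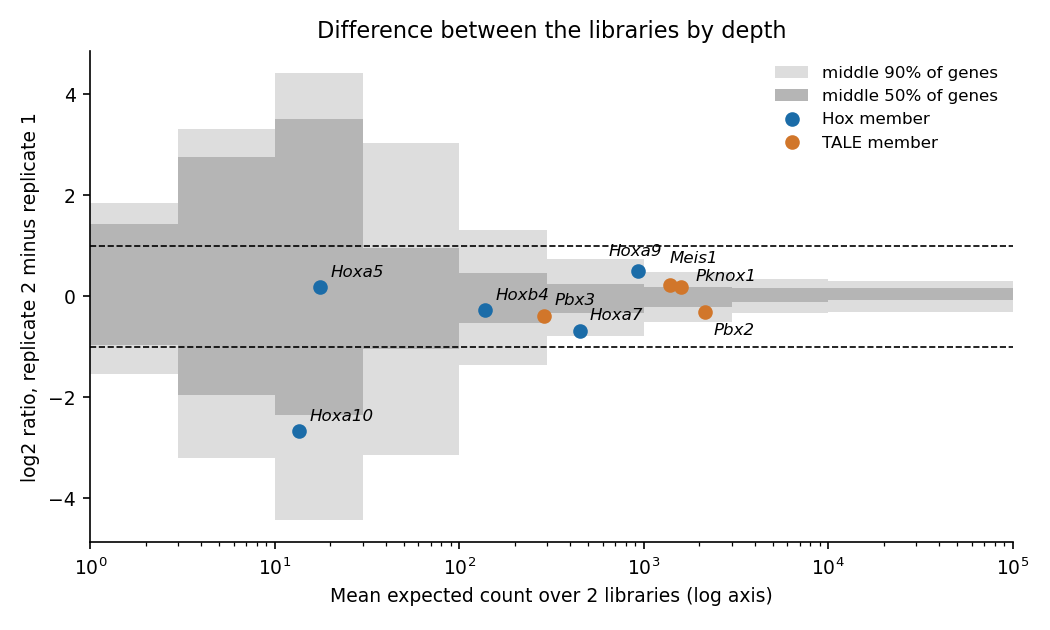
Log2 ratio of CPM, replicate 2 minus replicate 1, against the mean expected count on a log axis; points are the 9 members and grey bands hold the middle 50% and 90% of nuclear protein-coding genes in each band of counts. The 7 members above 100 counts lie between -0.68 and 0.51, inside the dashed lines at 1 and -1, and Hoxa10 at -2.67 lies where genes spread most.

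The other TALE genes were read from a list of 12 that holds the members. Of these, 8 reached 1 TPM in both libraries, against 40.8% of all nuclear protein-coding genes. Tgif1 and Tgif2, TALE repressors, were at 9.49 and 7.95 TPM and at 2.32 and 3.16 TPM, and Pbxip1, a Pbx-binding protein without a homeobox, at 2.40 and 1.83 TPM. Pbx4 was at 1.09 and 2.21 TPM. Meis2 and Meis3 had 0 counts in both libraries, so Meis1 was the one Meis gene with counts. The deposited credibility intervals still reached 0.477 and 0.729 TPM for Meis2 and 0.144 and 0.200 TPM for Meis3 in replicates 1 and 2.

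Among 76 homeobox genes of the fixed lists, the levels nearest to each member, by mean log2(TPM + 1) over 2 libraries of 1 cell type, were as follows. Hoxa9 and Pknox1 both lay nearest to Hhex, a blood homeobox gene at 3.57 and 4.73 TPM, and Meis1 lay nearest to Pou2f1 at 3.99 and 2.98 TPM. Pbx2 was nearest to Tgif1, Pbx3 to Tgif2, Hoxa7 to Homez, Hoxb4 to Six5, Hoxa5 to Zfhx3 and Hoxa10 to Hoxa4. Of 26 other homeobox genes listed, 10 reached 1 TPM in both libraries. That is near the 40.8% of all nuclear protein-coding genes, so the count is no result about homeobox genes. Among the 26 are the TALE-class genes Irx3, Irx5 and Mkx, which had 0 counts in both libraries. The highest of the 26, Zeb2 at 42.8 and 38.6 TPM, stood above every member.

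RNA of most of the listed regulators of Hoxa expression, chromatin proteins and Cdx transcription factors, was detected. Of 17 listed, 14 reached 1 TPM in both libraries, against 40.8% of all nuclear protein-coding genes. Kmt2a, the MLL histone methyltransferase that maintains Hoxa9, was at 2.14 and 1.74 TPM, and its partners Men1 and Psip1 were at 6.69 and 7.29 TPM and at 27.0 and 38.0 TPM. Dot1l, the methyltransferase recruited with MLL fusion partners, was at 2.64 and 2.29 TPM. The Polycomb genes Ezh2, Eed and Suz12, which repress Hox clusters, were at 24.1 and 34.9, 21.03 and 20.24, and 16.1 and 23.1 TPM. The Cdx genes, upstream activators of Hox genes in the embryo, had 0 counts for all 3.

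Of 11 genes described as Hoxa9 or Meis1 targets in leukaemia models, 9 reached 1 TPM in both libraries. The share over all nuclear protein-coding genes was 40.8%. Myb was highest at 113 and 142 TPM, followed by Cd34 at 51.5 and 61.1 TPM and Lmo2 at 45.4 and 55.0 TPM. Flt3, a receptor kinase gene often given as a Meis1 target, was at 0.92 and 1.72 TPM, and Trib2 at 0.01 and 0.02 TPM. Level alone says nothing of control by the members.

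Stromal and endothelial cells also express Hox, Meis and Pbx genes. Of 10 of their markers, 1 (Pecam1, at 9.16 and 10.85 TPM) reached 1 TPM in both libraries, and the summed level of the list was 9.90 TPM in replicate 1 and 11.79 in replicate 2. Col1a1, Col3a1, Pdgfra, Cdh5 and Prrx1 had 0 counts in both libraries, and Pdgfrb was at 0.72 and 0.89 TPM. On rescaled TPM Pdgfrb passed 1 as well, which made 2 of 10. The part of such cells in the levels of the members was not tested.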

How the data were processed

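Per the labels, RNA depleted of ribosomal RNA was made into ScriptSeq libraries from 100 ng, and their size ranges were 200 to 712 (replicate 1) and 200 to 1000 (replicate 2), without a unit. The deposited tables give expected counts, TPM and FPKM per gene and transcript, made by the authors with the GENCODE M4 annotation on mm10 per the deposited notes. The deposited tables also give posterior means, TPM credibility bounds and the percent of a gene held by each transcript. The names of the aligner and of the quantifier were not given in the sources used here. Symbols, coordinates, transcript types and sequences come from GENCODE M21, matched by identifier for 42462 of 43346 genes. Hoxa7-201, Pknox1-201, Pknox1-202, Pknox1-203 and Pknox1-205 differ in length between the releases.

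Expected counts were rounded and scaled with edgeR 4.0.16 (TMM, prior count 2) in R 4.3.3; DESeq2 1.42.0 size factors were an alternative. The ratio step was checked on simulated data. With 1 group of 2 libraries nothing was tested and no p-value is given. Genes were named by lists: the 9 members, 39 Hox genes, 12 TALE relatives, chromatin regulators, targets, other homeobox genes and cell type markers, and transcripts at 5% or more of a gene's TPM. Some genes and sequences are not reported here. Members and lists were chosen with earlier results of these data known. Of the marker lists not described above, megakaryocyte-erythroid genes had 1 of 7, B cell genes 0 of 5 and T and NK cell genes 0 of 5 at or above 1 TPM in both libraries. On rescaled TPM the megakaryocyte-erythroid genes had 3 of 7, and the other 2 lists stayed at 0.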

Additional observations from a re-analysis of the deposited data

How the results depend on the processing

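No paired analysis was possible because there is 1 group. The count of members at or above 1 TPM, 6, was 7 on FPKM or rescaled TPM, 5 with the longest protein-coding transcript as length (chosen after seeing the data; Pbx3 falls out), 4 at a threshold of 2 TPM and 1 at 5 TPM. Hox genes passing, 2 at 1 TPM, were 1 at 2 TPM and 0 at 5 TPM. The median level of the members, 2.415 TPM, was 6.695 on FPKM, 11.882 on rescaled TPM and 1.47 on the longest transcript, and 1.81 to 3.02 with either library left out. The Hoxa share of Hox TPM, 92.4%, was 87.5% on posterior mean TPM and 92.6% among Hox genes at or above 0.1 TPM. The TALE minus Hox difference of 1.77 was 2.39 on FPKM, 2.65 on rescaled TPM, 1.14 on the longest transcript, 2.87 with a pseudocount of 0.1 and 1.37 with means, and kept its sign in all of these. The values of 1.47 and 1.14 use Meis1-206 for Meis1, which held 1.89% and 3.84% of its TPM in replicates 1 and 2. The median leading transcript share of the 7 members with several transcripts, 66.3%, was 51.8% on posterior mean TPM. Members led by a non-coding transcript, 3, were 2 without replicate 1, where Hoxa9-201 leads Hoxa9; by counts there were again 3, but with Pbx3 in place of Hoxa9. Past a log2 ratio of 1 lay 1 member, Hoxa10, and 0 members among genes kept by filterByExpr, which leaves Hoxa10 out. On rescaled TPM Pbx3 passed at -1.16 and Hoxa10 did not, at -0.60. No difference between families or libraries changed sign in the alternatives run. The cause of the moves was not tested beyond the change of scale or length itself.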
